A study of Mus musculus with 17 samples.

Results

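The cytosolic ribosome is built from ribosomal RNA and a fixed set of ribosomal proteins, and the genes described here are those that encode these proteins. Members were taken by gene symbol: every row of the deposited count matrix named Rpl or Rps with a number (and at most the letter a, x or y), together with Rplp0, Rplp1, Rplp2 and Rpsa, without rows named as pseudogenes, and with more than 10 CPM (counts scaled to a common library total) in 2 or more libraries. In all, 76 rows bore such a name, and all 76 passed the filter, of 10481 genes kept among 55421 rows. They comprised 43 genes of the large subunit, 30 of the small subunit and the 3 genes of the acidic stalk (Rplp0, Rplp1 and Rplp2), to which elongation factors bind.

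The libraries were total RNA of lung cell cultures at passage 1, labelled as primary fibroblasts, from 17 mice. Every mouse carried floxed Ephb4 alleles and the tamoxifen-inducible Cre recombinase Col1a2-CreERT2 (Ephb4f/f; Col1a2-CreERT2), so recombination was directed to cells with an active Col1a2 promoter, a type I collagen promoter. Mice received 4-hydroxytamoxifen at 1 mg per day for 5 days at 4 weeks of age (Ephb4 CKO) or corn oil (Ephb4 control), and then an intratracheal dose at 6 weeks of either PBS or bleomycin (1.2 U/kg), an agent that causes lung injury and later fibrosis. Lungs were taken on day 14, and each library came from 1 mouse: 4 Ephb4 control mice after PBS, 4 Ephb4 control mice after bleomycin, 5 Ephb4 CKO mice after PBS and 4 Ephb4 CKO mice after bleomycin. Corn oil controls received no 4-hydroxytamoxifen, so effects of the drug and of the deletion cannot be told apart.

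Ribosomal protein mRNAs are among the most abundant in growing cells. Assembly of the subunits begins in the nucleolus, and most of their proteins are present in equal amounts. Many of these mRNAs begin with a C followed by a run of pyrimidines (a 5′ terminal oligopyrimidine, or TOP, tract), through which mTORC1 and the RNA-binding protein Larp1 control their translation and stability. Introns of many of the genes carry small nucleolar RNAs (snoRNAs), which guide chemical modification of ribosomal RNA. Some of the proteins have roles beyond the ribosome: Rpl5 and Rpl11 bind Mdm2 and so act on p53. Rps6 is a substrate of S6 kinase.

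All 76 genes matched GENCODE M21 (GRCm38) as protein coding and lay on 19 chromosomes, with 14 on chromosome 7 and 4 on the X chromosome. The genes were short, with a median span of 3266 bp, a median longest transcript of 1100 bp and a median of 5 exons. A snoRNA gene lay inside 29 of the 76 (38.2%), compared with 213 of the 10038 protein-coding genes kept (2.12%). The 56 snoRNA genes included Snord32a, Snord33, Snord34 and Snord35a inside Rpl13a, a large subunit gene described below.

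Promoters were taken from RefSeq (GRCm38.p6), whose table held a start for 56 of the 76 genes. A C followed by 4 or more pyrimidines began exactly at the annotated start of 13 of the 56 (23.2%), compared with 3.01% of 27025 genes in that table. Allowing 5 bases on either side, the figures were 27 of 56 (48.2%) and 21.2%. The windows below run from 10 bases before the annotated start to 20 bases from it, so that the eleventh base is the annotated start. They are shown for genes with large fitted differences below, for Rps6, and for Rpl31, which varied least between mice, and capitals mark the pyrimidine run where one began within 5 bases.
Rplp0, chr5:115559457-115559486, + strand: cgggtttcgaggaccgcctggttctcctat
Rpsa, chr9:120127756-120127785, + strand: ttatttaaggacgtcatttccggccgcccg
Rps2, chr17:24720053-24720082, + strand: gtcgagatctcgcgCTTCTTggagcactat
Rps6, chr4:86857348-86857377, − strand: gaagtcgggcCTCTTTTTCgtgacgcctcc
Rps26, chr10:128626487-128626516, − strand: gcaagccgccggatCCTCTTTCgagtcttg
Rpl12, chr2:32961702-32961731, + strand: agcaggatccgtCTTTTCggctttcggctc
Rpl13a, chr7:45128726-45128755, − strand: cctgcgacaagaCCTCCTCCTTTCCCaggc
Rpl15, chr14:18270967-18270996, − strand: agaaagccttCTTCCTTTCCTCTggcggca
Rpl36a, chrX:134585644-134585673, + strand: cccaggcaccgcctataaacttccgttgcg
Rpl39, chrX:37085203-37085232, − strand: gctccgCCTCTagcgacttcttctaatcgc
Rpl31, chr1:39367841-39367870, + strand: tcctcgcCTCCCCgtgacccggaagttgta

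Of these windows, Rps6 and Rpl15 had the run exactly at the annotated start. Rplp0, Rpsa and Rpl36a had none within 5 bases, which says only that no such run began that close to the annotated start. In the windows of Rplp0 and Rpl36a a run began farther downstream and is not marked. Over the 300 bases from 250 before to 50 after each start, on both strands, the ETS motif CCGGAAG was found in 41.1% of the 56 genes and in 9.93% of all genes in the table. The YY1 motif AAGATGGC was found in 8.93% and 3.19%, the GC box GGGCGG in 60.7% and 38.2%, and the TATA box TATAAA in 10.7% and 15.7%. The upstream 150 bases of Rps2 and Rpl13a, whose levels did not overlap between genotypes after bleomycin, are printed with each such motif, on either strand, in capitals.
Rps2, chr17:24719913-24720062, + strand: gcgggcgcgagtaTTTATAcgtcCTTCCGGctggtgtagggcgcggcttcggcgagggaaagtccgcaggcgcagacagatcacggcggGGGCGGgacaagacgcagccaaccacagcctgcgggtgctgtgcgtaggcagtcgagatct
Rpl13a, chr7:45128746-45128895, − strand: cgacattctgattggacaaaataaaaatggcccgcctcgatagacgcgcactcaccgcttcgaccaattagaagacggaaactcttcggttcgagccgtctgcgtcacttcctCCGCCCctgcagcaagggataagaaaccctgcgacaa

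The levels of the 76 genes were high and narrow. Mean CPM over the 17 libraries ran from 105 to 857 with a median of 296, compared with 27.5 for all genes kept, and every gene exceeded the 10 CPM of the filter in every library. The lowest value was 26.3 CPM (Rpl29 in Ephb4 control bleomycin 2). The smallest count behind any of these values was 2931. If counts were independent reads, counting error would be at most 1.85%, though these counts come from read coverage. The spread between mice set the precision. Per kb of the longest annotated transcript, Rplp1 (stalk) had the highest mean level at 996 CPM per kb, followed by Rpl19 at 688 and Rpl41, which encodes the smallest protein of the ribosome, at 687. Rps15a at 50.4, Rpl35a at 61.3 and Rps13 at 67.8 CPM per kb had the lowest. With the mean length of the coding transcripts in its place, these were 126, 345 and 168 CPM per kb, and Rpl19 and Rpl41 were at 695 and 922 CPM per kb, so the order depended on the transcript length used at both ends.

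As shares of the summed CPM of all 76 genes, Rplp0 averaged 3.51% (range 3.16 to 4.12%), Rpsa, the laminin receptor homolog of the small subunit, 2.94%, and Rpl4 2.78%. The 10 most abundant genes together held 24.7%. The lowest average shares were those of Rpl36 (0.436%), Rps16 (0.450%) and Rpl29 (0.475%). Rows named as pseudogenes of a member numbered 306, for 61 genes, and held 4.03% of the joint counts. For 10 genes they held more than 10%, led by Rpl10 (20.2%), Rps6 (20.1%) and Rpl15 (18.2%), and the division of near-identical sequence between gene and pseudogene is uncertain there.

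Libraries held 66540022 to 120554468 counts (median 93075927), no pair of libraries held identical counts, and in 3 libraries (Ephb4 control bleomycin 2, and Ephb4 CKO bleomycin 1 and 2) the sex-linked genes went against the labelled sex. Ephb4, the targeted gene, measured 2.17 to 41.9 CPM in Ephb4 control PBS, 15.3 to 84.6 in Ephb4 control bleomycin, 3.59 to 20.9 in Ephb4 CKO PBS and 4.79 to 14.5 in Ephb4 CKO bleomycin, as CPM of unscaled library totals. With TMM-scaled library sizes Ephb4 control bleomycin 2 (13.3 CPM) lay below Ephb4 CKO bleomycin 1 (14.2 CPM), so control and CKO overlapped after PBS on both scales and after bleomycin on the scaled one. The label of fibroblasts did not hold evenly: a macrophage marker score (mean log2 CPM of 19 markers) exceeded the fibroblast marker score (12 of 14 markers kept) in 12 of 17 libraries. Summed fibroblast markers ranged from 7195 to 15360 CPM in Ephb4 control bleomycin, from 59.8 to 9320 in Ephb4 control PBS, from 122 to 2738 in Ephb4 CKO PBS and from 109 to 2608 in Ephb4 CKO bleomycin. Summed macrophage markers ranged from 1595 to 21959 CPM in Ephb4 control bleomycin, from 11298 to 50709 in Ephb4 control PBS, and from 23419 to 47284 in the CKO groups. Single markers varied widely within each list. Tcf21, a lung fibroblast transcription factor that did not pass the filter, was at 0 in 3 libraries and at most 3.62 CPM. Every other listed fibroblast marker was above 0 in every library, but their lowest values ran from 0.060 CPM (Lum) to 30.6 CPM (Fn1). Col1a1 fell to 0.337 CPM. Lyz2, the most abundant macrophage marker, measured at least 1120 CPM in every library, while Siglecf, another macrophage marker, fell to 1.30 CPM. Summed smooth muscle markers (5 of 6) were 464 to 502 CPM in Ephb4 control bleomycin and at most 318 elsewhere. Over all libraries summed epithelial markers (8 of 9) ranged from 30.9 to 2589 CPM and endothelial markers (8 of 8) from 53.4 to 329 CPM. Of the other lists, 1 of 5 mesothelial, 2 of 6 neutrophil and none of 7 lymphocyte markers passed the filter.

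The summed share of counts on the 76 genes was highest in Ephb4 control bleomycin and lowest in Ephb4 CKO PBS. In Ephb4 control mice it was 2.18, 1.89, 2.97 and 2.71% after PBS and 4.56, 2.96, 2.75 and 2.82% after bleomycin. In Ephb4 CKO mice it was 1.26, 1.82, 2.32, 2.01 and 1.99% after PBS and 2.37, 2.63, 1.84 and 2.61% after bleomycin. Groups overlapped in the pairs compared below, apart from Ephb4 CKO bleomycin (at most 2.63%) and Ephb4 control bleomycin (at least 2.75%). With TMM-scaled library sizes, as used in the tests, these groups overlapped too. The summed level was 27236 CPM in Ephb4 CKO bleomycin 4 and 25305 CPM in Ephb4 control bleomycin 3. The group means were 2.44% ± 0.490 (SD, n = 4), 3.27% ± 0.863 (n = 4), 1.88% ± 0.392 (n = 5) and 2.36% ± 0.368 (n = 4) in the order above. Mouse 1 of Ephb4 control bleomycin stood apart, and without it that group averaged 2.84% ± 0.105 (n = 3). In bulk RNA, fewer cells of a type that uses these genes heavily and less of their RNA per cell cannot be told apart.

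**Figure D1:**
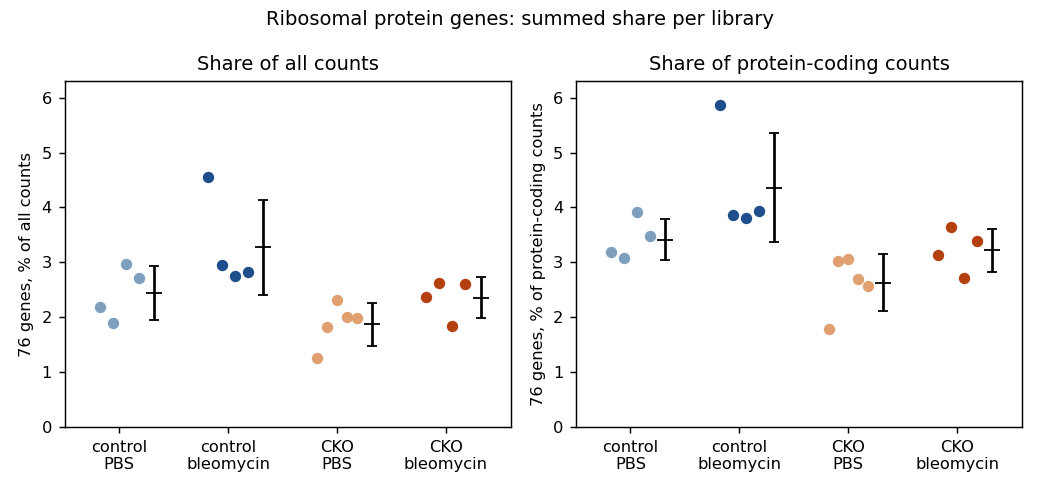
Summed counts of the 76 ribosomal protein genes as a percentage of all counts (left) and of counts on protein-coding genes (right), with 1 point per library and the mean and SD of each group as a bar with caps. Mouse 1 of Ephb4 control bleomycin lies at 4.56% on the left, above the 2.75 to 2.96% of the other mice of its group.

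As counts on protein-coding genes only, the share was 3.41% ± 0.369 (SD, n = 4) in Ephb4 control PBS, 4.36% ± 0.996 (n = 4) in Ephb4 control bleomycin, 2.63% ± 0.512 (n = 5) in Ephb4 CKO PBS and 3.22% ± 0.393 (n = 4) in Ephb4 CKO bleomycin, which kept the order of the groups. The library with the highest summed level (35600 CPM, on the scale of library sizes adjusted by edgeR's TMM method) was Ephb4 control bleomycin 1, whose macrophage score of 4.36 was the lowest of the 17 and whose fibroblast score was 8.85. High summed levels also occurred where fibroblast markers were low: Ephb4 control PBS 4, with 29353 CPM, had a fibroblast score of 0.427 and a macrophage score of 8.65. Ephb4 CKO bleomycin 4 (27236 CPM) had scores of 1.17 and 8.60, and Ephb4 CKO PBS 1, the lowest library (17105 CPM), had 3.20 and 7.81. These scores moved with the groups, and their part in the differences was not tested.

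**Figure D2:**
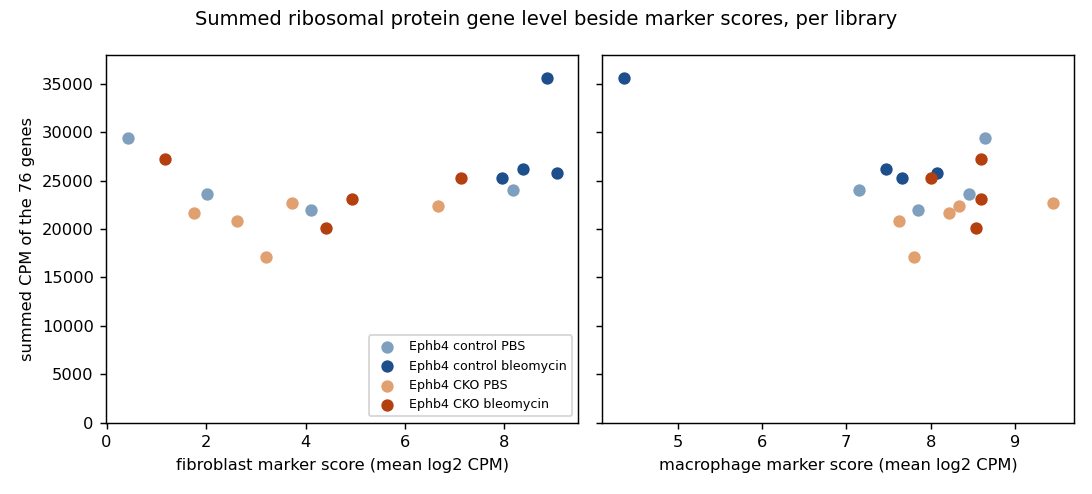
Summed CPM of the 76 genes in each library (vertical axis, from 0) against the library's fibroblast marker score (left) and macrophage marker score (right), both in mean log2 CPM, with 1 point per library coloured by group. Ephb4 control bleomycin 1 is the highest point at 35600 CPM, at a macrophage score of 4.36, and Ephb4 CKO PBS 1 the lowest at 17105 CPM.

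The 76 genes moved together from mouse to mouse. Within groups, the SD of log2 CPM (13 residual degrees of freedom) had a median of 0.225 for the 76 genes, compared with 0.424 for all genes kept and 0.467 for the 1282 genes at least as abundant as the lowest member. All but Rpl29 lay below the median of all genes. The tightest were Rpl31 (0.154), Rps20 (0.161) and Rpl37 (0.168). The widest were Rpl29 (0.728), Rps16 (0.421) and Rps12 (0.399).

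Across the 17 libraries, after removing group means, the 2850 pairs of members had a median correlation of 0.711 and 98.9% were above 0, compared with a median of −0.0046 and 49.6% for all gene pairs. These correlations are descriptions, since members share the library, its depth and its mix of cells. The lowest correlation was that of Rpl10a with Rpl24 (−0.28). Averaged over its pairs, Rps3, a small subunit protein, followed the other members most closely (0.790), and Rpl11 (0.785) came next. Rpl24 (0.146), Rps16 (0.303) and Rpl29 (0.339) followed them least.

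The balance between subunits varied little. The summed CPM of the large subunit and stalk genes together was 1.58 to 1.74 times that of small subunit genes in the 17 libraries, with group means of 1.65, 1.60, 1.67 and 1.64 for Ephb4 control PBS, Ephb4 control bleomycin, Ephb4 CKO PBS and Ephb4 CKO bleomycin. The ratio ran from 1.579 to 1.621 in Ephb4 control bleomycin and from 1.623 to 1.651 in Ephb4 CKO bleomycin, without overlap. The other pairs compared overlapped. Most members also kept their share of the pool: the log2 difference in share stayed within ±0.25 for 66 of the 76 genes for bleomycin versus PBS in Ephb4 control, for all 76 for Ephb4 CKO versus control after PBS, for 66 for Ephb4 CKO versus control after bleomycin and for 75 for bleomycin versus PBS in Ephb4 CKO. The extremes were Rpl29 (−0.65) and Rpl12 (0.31) in the first, Rpl36a (−0.21) and Rpl24 (0.24) in the second, Rpl13a (−0.30) and Rpl29 (0.63) in the next and Rpl24 (−0.30) and Rpl10a (0.13) in the last. These are differences between group means of the log2 share. Both Rpl29 extremes include Ephb4 control bleomycin 2, where Rpl29 was at 26.3 CPM, the lowest value of any member. The fitted log2 difference of Rpl29 for Ephb4 CKO versus control after bleomycin was 0.12.

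**Figure D3:**
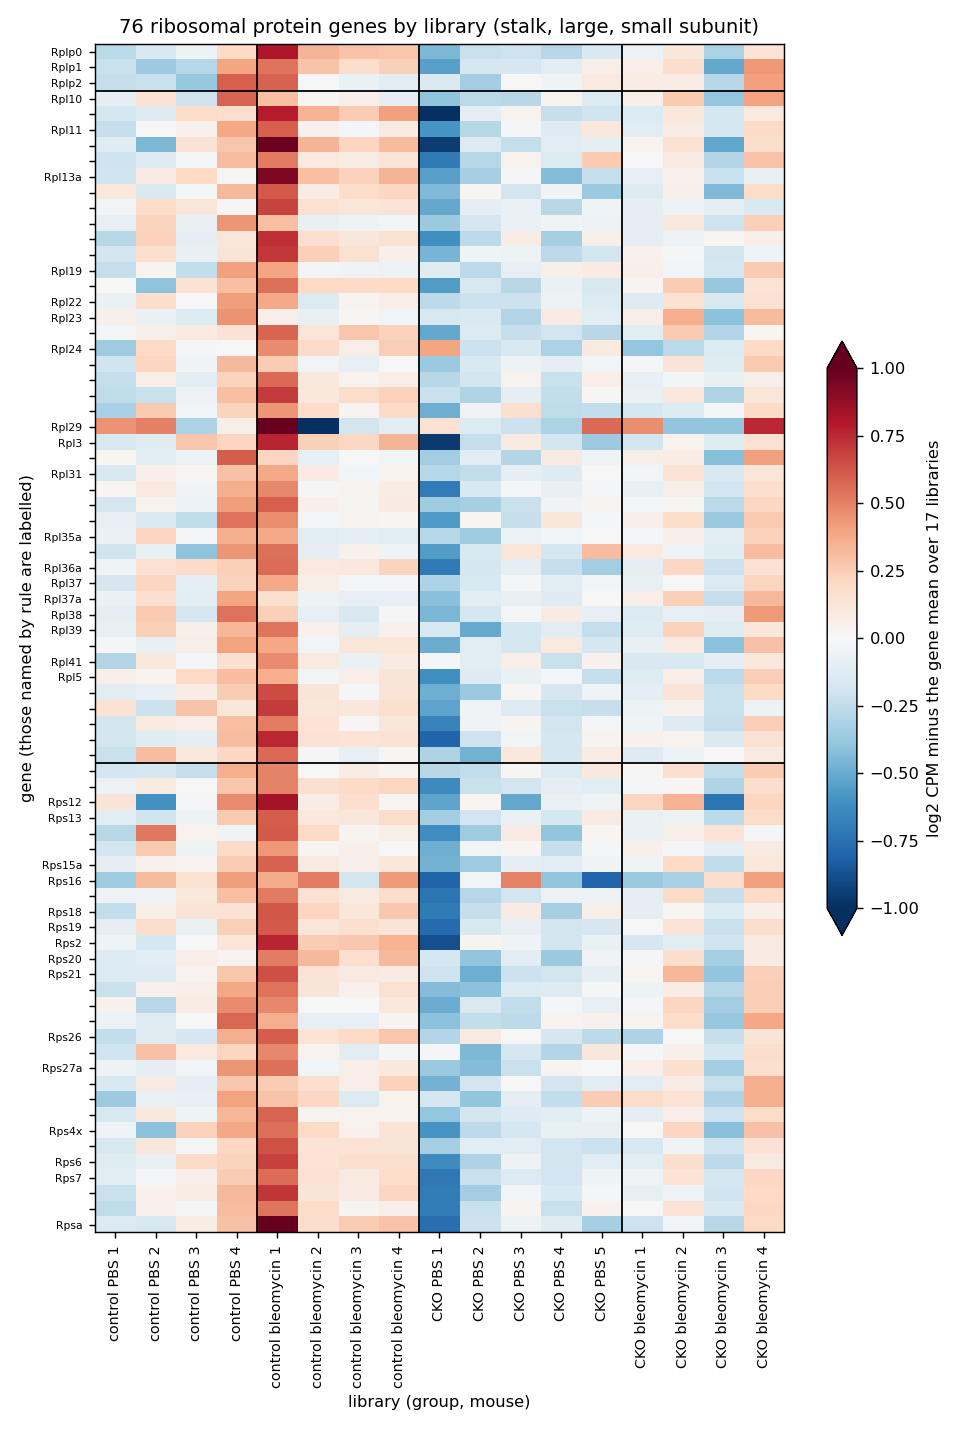
Log2 CPM of each of the 76 genes in each of the 17 libraries minus the gene's mean over the libraries (colour scale cut at −1 and 1), with rows by stalk, large and small subunit and columns by group and mouse. Whole columns share a colour: Ephb4 control bleomycin 1 is high and Ephb4 CKO PBS 1 low for nearly every gene, while Rpl24, Rpl29 and Rps16 depart from their columns.

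Bleomycin versus PBS in Ephb4 control mice asked how these genes differed in cultures from injured lungs. No member passed an adjusted p of 0.05 in edgeR's quasi-likelihood test, where 0% of the 10481 genes did, nor in DESeq2 (166 genes called over the whole table) or in limma voom with or without sample weights. The fitted log2 fold change was above 0 for 64 of the 76 genes (44.5% of all genes), with a median of 0.16 (a fold of 1.12) beside −0.06 for all genes and a range of −0.16 to 0.50. At an unadjusted p under 0.05 there were 4 members, all higher (Rplp0, Rps20, Rpl13a and Rps2), 5.26% beside 6.28% of all genes. Groups did not overlap for 5 members, the same 4 and Rpl10a, all higher after bleomycin, which is 6.58% beside 5.72% of all genes. Both shares were near the background.

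Rplp0, the stalk scaffold and 1 of the 2 reference genes of the study's NanoString assay, measured 693, 753, 809 and 963 CPM after PBS and 1466, 1060, 1020 and 1013 CPM after bleomycin. The study ran that assay on other cultures, of wild-type mouse lung fibroblasts treated in vitro and of human lung fibroblasts. Every bleomycin library lay above every PBS library. The fitted log2 difference was 0.50 ± 0.18 (SE; adjusted p = 0.315 in edgeR, the smallest of any member in this comparison). In a 2-sided exact permutation test on the log2 CPM of Rplp0 alone, p = 0.0286, the smallest that 4 against 4 mice allow, and 0.0571 after Benjamini-Hochberg adjustment over the 4 pairwise comparisons of this gene. The other stalk genes, which form the dimers carried by Rplp0, differed by 0.40 ± 0.22 (Rplp1) and 0.14 ± 0.23 (Rplp2), and their groups overlapped.

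Of the small subunit, Rpsa measured 636, 624, 735 and 853 CPM after PBS and 1389, 790, 834 and 851 after bleomycin. Mouse 1 after bleomycin was far above the rest, the other values overlapped with PBS, and the log2 difference was 0.44 ± 0.22 (SE; adjusted p = 0.374 in edgeR). Rps2, a protein of the mRNA entry channel, measured 563, 513, 581 and 633 CPM after PBS and 984, 692, 700 and 738 after bleomycin. The groups did not overlap, and the log2 difference was 0.44 ± 0.20 (SE; adjusted p = 0.342). Rps20 measured 231, 234, 265 and 259 CPM after PBS and 361, 315, 284 and 317 after bleomycin, a log2 difference of 0.37 ± 0.15 (SE; adjusted p = 0.323) without overlap. Rps26, Rps18, Rps6, Rps19, Rps4x and Rps27a, the last of which is made as a fusion with ubiquitin, differed by 0.34, 0.29, 0.24, 0.20, 0.17 and 0.11 on the log2 scale, each with an SE of 0.17 to 0.21 and overlapping groups.

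Of the large subunit, Rpl13a, known in macrophages as part of an interferon-gamma-activated translation inhibitor complex, measured 473, 573, 621 and 546 CPM after PBS and 1036, 668, 636 and 684 after bleomycin. Its groups did not overlap, and its log2 difference was 0.45 ± 0.19 (SE; adjusted p = 0.323). Rpl12, next to the stalk base, had the largest fitted difference at 0.50 ± 0.25 (SE; adjusted p = 0.365), and Rpl3, at the peptidyl transferase centre, differed by 0.34 ± 0.22. Rpl11 (0.13 ± 0.19), Rpl41 (0.16 ± 0.16), Rpl5 (−0.01 ± 0.17), Rpl22 (−0.05 ± 0.15) and Rpl10 (−0.06 ± 0.21) differed by about their SE or less. The lowest values were those of Rpl38 (−0.16 ± 0.19), linked to translation of Hox mRNAs, Rpl37a (−0.12 ± 0.17) and Rpl35a (−0.10 ± 0.16), and none passed.

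**Figure D4:**
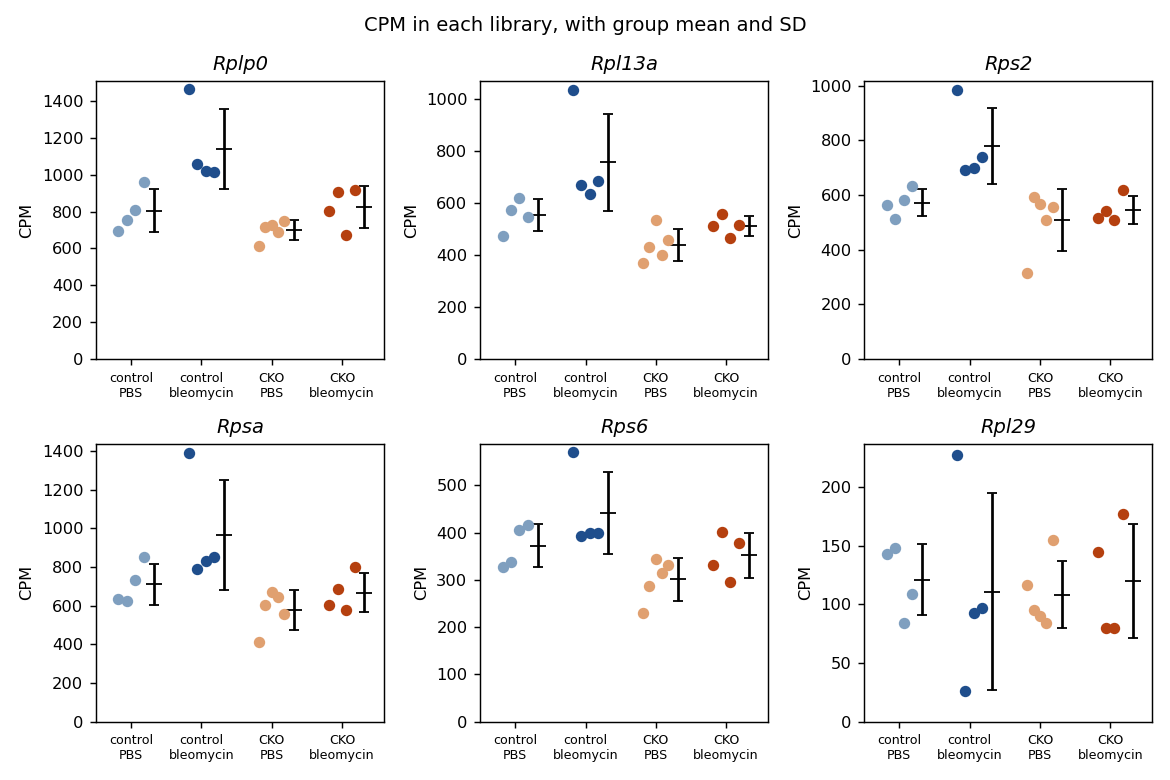
CPM in each library (vertical axis, from 0) of Rplp0, Rpl13a, Rps2, Rpsa, Rps6 and Rpl29, with 1 point per mouse and the mean and SD of each group as a bar with caps. In Rplp0, Rpl13a and Rps2 all Ephb4 control bleomycin libraries lie above all Ephb4 control PBS libraries, and Rpl29 spans 26.3 to 227 CPM within Ephb4 control bleomycin.

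The median log2 difference rested in part on mouse 1. Without it the median of the 76 genes was 0.076, with 52 above 0, and Rplp0 differed by 0.39 and Rpsa by 0.24. Without Ephb4 control PBS 4 the median was 0.26. With the macrophage marker score as a covariate the median was 0.095 and the Rplp0 value 0.40, and with the fibroblast marker score 0.24 and 0.54. As the difference between group means of each library's median log2 CPM over the members, the value was 0.18 over all libraries, 0.14 and 0.23 within the first and second run of columns of the deposited table (2 against 2 mice each), and 0.37 within the animals numbered in the series 12 (4 against 1). The pooled within-group SD of that median was 0.189. All 4 bleomycin mice bore numbers of series 12 against 1 of 4 PBS mice, so number series and bleomycin cannot be fully told apart.

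Ephb4 CKO versus control after PBS compared genotypes without injury. No member passed the adjusted threshold in edgeR, where 0% of all genes did, and none did in DESeq2, which called 1 gene, or in limma voom. The fitted log2 fold change was below 0 for 75 of the 76 genes (53.6% of all genes), with a median of −0.25 (a fold of 0.839) beside −0.02 for all genes and a range of −0.43 to 0.01. At an unadjusted p under 0.05 there were 5 members, all lower in Ephb4 CKO (Rpl36a, Rpl39, Rpl22, Rpl23a and Rpl5), 6.58% beside 0.563% of all genes. Labelled sex was unevenly spread over these groups. With labelled sex as a covariate in edgeR, 1 member was lower at that threshold (10 of all genes). The median was then −0.16, with 8 members above 0. That label went against the sex-linked genes in 3 bleomycin libraries of the same fit. Weighted limma voom also left 1 member lower (29 of all genes), with 10 members above 0. Other settings left more lower: 11 members in DESeq2 (110 of all genes), 6 in voom without weights (29 of all genes) and 7 in edgeR with upper quartile scaling (86 of all genes). Groups did not overlap for 7 members, all lower and among them Rpl15, Rpl23a, Rpl36a, Rpl39 and Rpl5, 9.21% beside 0.219%. The smallest adjusted p was 1.00.

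Rpl36a measured 128, 145, 150 and 154 CPM in Ephb4 control and 80.3, 117, 123, 112 and 103 in Ephb4 CKO. Its groups did not overlap, and it had the largest fitted difference, −0.43 ± 0.15 on the log2 scale (SE). Rpl39, a short protein lining the peptide exit tunnel, measured 160, 198, 174 and 211 CPM in Ephb4 control and 151, 119, 148, 155 and 142 in Ephb4 CKO, a difference of −0.37 ± 0.16. Rpl5 measured 530, 521, 583 and 629 CPM in Ephb4 control and 332, 463, 486, 503 and 430 in Ephb4 CKO, a difference of −0.35 ± 0.16. Rpl5 binds 5S ribosomal RNA together with Rpl11, which differed by −0.23 ± 0.18 with overlapping groups. Rpl22, an RNA-binding protein not essential for the ribosome, differed by −0.32 ± 0.14, and its paralog Rpl22l1, which is not a member, by −0.81 ± 0.29 (46.5 ± 7.34 CPM in control, SD, and 26.6 ± 11.8 in Ephb4 CKO).

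Rpl23a measured 319, 333, 343 and 356 CPM in Ephb4 control and 226, 293, 275, 282 and 265 in Ephb4 CKO, a difference of −0.33 ± 0.15 without overlap. Rpsa (−0.30 ± 0.21), Rps6 (−0.30 ± 0.17), Rps19 (−0.33 ± 0.17), Rps4x (−0.30 ± 0.20), Rps27a (−0.27 ± 0.18), Rps18 (−0.23 ± 0.18), Rpl3 (−0.36 ± 0.20), Rpl10 (−0.34 ± 0.20), Rpl13a (−0.33 ± 0.17) and Rpl38 (−0.28 ± 0.18) lay at a similar distance below 0 without passing. The stalk genes were nearer 0, with Rplp0 at −0.20 ± 0.17, Rplp1 at −0.09 ± 0.21 and Rplp2 at −0.07 ± 0.22. Rps26 (−0.09 ± 0.17), Rpl41 (−0.04 ± 0.15) and Rpl24 (0.01 ± 0.18), the single member above 0, were within their SE. For Rplp0 the exact permutation test gave p = 0.0952 (2-sided), the same after adjustment over its 4 comparisons.

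Leaving out Ephb4 control PBS 4 brought the median to −0.16 with 11 members above 0, and leaving out Ephb4 CKO PBS 1, the library with the lowest summed level, brought it to −0.19. Within the first run of columns the difference in median log2 CPM was −0.12 (2 against 2) and within the second −0.38 (3 against 2). It was −0.23 within number series 11 (3 against 3), −0.23 within series 12 (2 against 1) and −0.27 over all libraries. In these groups the median of the macrophage markers was higher by 0.44 and that of the fibroblast markers lower by 1.44 in Ephb4 CKO on the log2 scale. Summed fibroblast markers reached 9320 CPM in Ephb4 control PBS 3, and the group medians of the sums ran the other way, with 1216 CPM for Ephb4 CKO against 808 for the controls. The part of these markers in the result was not tested.

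Ephb4 CKO versus control after bleomycin compared genotypes in injured lungs. In edgeR no member passed the adjusted threshold, nor did any other gene (0%), and the smallest adjusted p of a member was 0.208. The fitted log2 fold change was below 0 for 66 of the 76 genes (49.3% of all genes), with a median of −0.22 (a fold of 0.861) beside 0.01 for all genes and a range of −0.56 to 0.12. At an unadjusted p under 0.05 there were 7 members, all lower in Ephb4 CKO (Rpl13a, Rplp0, Rps2, Rpl15, Rpsa, Rps20 and Rps26), 9.21% beside 9.18% of all genes. Groups did not overlap for 12 members, all lower and among them Rpl10a, Rpl12, Rpl13a, Rpl15, Rpl18, Rpl3, Rpl7, Rplp0, Rps18, Rps2 and Rps26, 15.8% beside 12.2% of all genes. Tools differed: DESeq2 called 1 member lower, Rpl13a (log2 −0.56, adjusted p = 0.0354), where it called 2.42% of all genes lower, limma voom with sample quality weights called 18 lower, where it called 23.2% of all genes lower, and voom without weights called none.

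Rpl13a measured 1036, 668, 636 and 684 CPM in Ephb4 control and 512, 559, 465 and 514 in Ephb4 CKO. All Ephb4 CKO values lay below all control values, and the fitted log2 difference was −0.56 ± 0.19 (SE; adjusted p = 0.208 in edgeR). Rplp0 measured 1466, 1060, 1020 and 1013 CPM in Ephb4 control and 804, 905, 671 and 918 in Ephb4 CKO, again without overlap. Its log2 difference was −0.47 ± 0.18 (SE; adjusted p = 0.218), and its 2-sided exact permutation p was 0.0286, the smallest possible for 4 against 4 mice, or 0.0571 after adjustment over its 4 comparisons. Rps2 measured 984, 692, 700 and 738 CPM in Ephb4 control and 517, 541, 508 and 618 in Ephb4 CKO, a log2 difference of −0.51 ± 0.20 (SE; adjusted p = 0.219) without overlap.

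Rpsa measured 1389, 790, 834 and 851 CPM in Ephb4 control and 603, 685, 577 and 801 in Ephb4 CKO, where 1 Ephb4 CKO value exceeded the lowest control value. Its log2 difference was −0.54 ± 0.22 (SE; adjusted p = 0.223). Rpl15 measured 390, 271, 265 and 267 CPM in Ephb4 control and 228, 235, 229 and 220 in Ephb4 CKO, a difference of −0.39 ± 0.16 without overlap. Rps26, whose gene is mutated in some Diamond-Blackfan anaemia families, measured 295, 213, 223 and 234 CPM in Ephb4 control and 156, 193, 165 and 212 in Ephb4 CKO, a difference of −0.41 ± 0.17 without overlap. Rps20 (−0.35 ± 0.15), Rps18 (−0.35 ± 0.19), Rps6 (−0.33 ± 0.18), Rps19 (−0.24 ± 0.18), Rps4x (−0.20 ± 0.21) and Rps27a (−0.17 ± 0.19) of the small subunit did not pass.

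In the large subunit, Rpl12 (−0.51 ± 0.25), Rpl10a (−0.48 ± 0.23) and Rpl3 (−0.43 ± 0.22) showed larger differences than Rpl41 (−0.23 ± 0.16), Rpl11 (−0.20 ± 0.19), Rpl5 (−0.15 ± 0.17) and Rpl22 (−0.08 ± 0.15), though none passed and the differences between genes were not tested. Rpl10 (0.04 ± 0.21) and Rpl38 (0.04 ± 0.19) lay near 0. The highest values were Rpl37a (0.12 ± 0.17), Rpl23 (0.12 ± 0.19) and Rpl29 (0.12 ± 0.47). Rpl29, a heparin-binding large subunit protein, measured 227, 26.3, 92.2 and 96.7 CPM in Ephb4 control and 144, 79.7, 79.5 and 177 in Ephb4 CKO, so that its SE exceeded its difference.

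These values shared the Ephb4 control bleomycin libraries with the first comparison, so a member high in them was high in one comparison and low in the other. Without mouse 1 the median here was −0.10, with 19 members above 0, and the Rplp0 and Rpsa differences were −0.35 and −0.33. With the macrophage marker score as a covariate the median was −0.12 and the Rplp0 and Rpsa differences were −0.33 and −0.28. With the fibroblast marker score, the median was −0.27 and Rplp0 −0.50, and no member was above 0. The median fibroblast marker was lower in Ephb4 CKO by 2.42 and the median macrophage marker higher by 1.20 on the log2 scale, and their part in the result was not tested. The difference in median log2 CPM was −0.22 over all libraries, −0.19 and −0.25 within the column runs (2 against 2 each) and −0.18 within number series 12 (2 against 4).

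**Figure D5:**
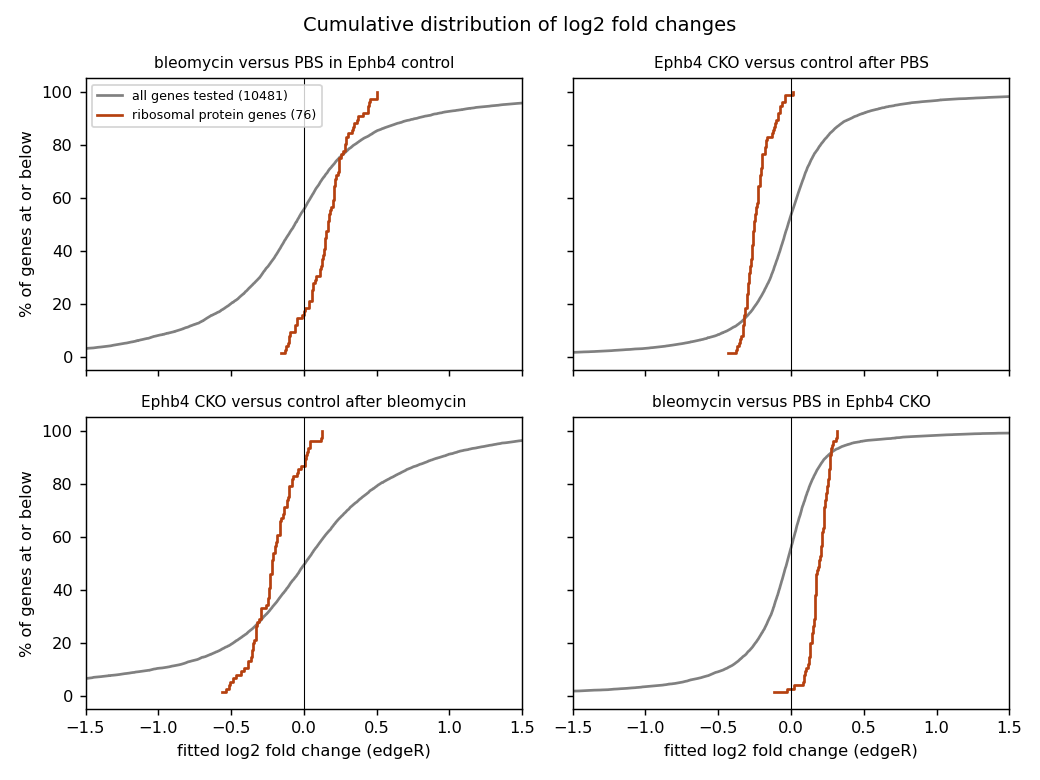
Percentage of genes at or below each fitted log2 fold change (edgeR) for all 10481 genes tested (grey) and for the 76 ribosomal protein genes (orange) in the 4 pairwise comparisons. The orange curves are steeper than the grey ones and are centred at 0.16, −0.25, −0.22 and 0.19, and the comparisons share groups.

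Bleomycin versus PBS in Ephb4 CKO mice asked for the injury difference in the deleted genotype. No member passed the adjusted threshold in edgeR (0% of all genes), in DESeq2, which called 1 gene, or in limma voom, and none reached an unadjusted p under 0.05 (0.964% of all genes). Groups overlapped for every member (0.0763% of all genes were higher and 0.00954% lower without overlap). The fitted log2 fold change was above 0 for 74 of the 76 genes (44.2% of all genes), with a median of 0.19 (a fold of 1.14) beside −0.03 for all genes and a range of −0.12 to 0.32. Rpl10 (0.32 ± 0.20), Rpl36a (0.31 ± 0.15), Rps21 (0.31 ± 0.17) and Rps7 (0.29 ± 0.16) were among the highest, and Rpl24 (−0.12 ± 0.18) and Rpl41 (−0.03 ± 0.15) were the members below 0.

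Rpl36a measured 80.3, 117, 123, 112 and 103 CPM after PBS and 123, 151, 113 and 145 after bleomycin, and the groups overlapped. Rplp0 measured 613, 718, 727, 689 and 752 CPM after PBS and 804, 905, 671 and 918 after bleomycin, a log2 difference of 0.24 ± 0.17 (SE) with an exact permutation p of 0.0952 (2-sided). Rps19 (0.28 ± 0.17), Rps4x (0.27 ± 0.20), Rpl3 (0.27 ± 0.20), Rps6 (0.22 ± 0.17), Rpl13a (0.22 ± 0.17), Rpsa (0.21 ± 0.21), Rps27a (0.21 ± 0.18), Rpl5 (0.19 ± 0.16) and Rpl11 (0.17 ± 0.18) were close to the median, and Rps2 (0.10 ± 0.19) and Rps26 (0.02 ± 0.17) were lower. Leaving out Ephb4 CKO bleomycin 4 brought the median to 0.13 and leaving out Ephb4 CKO PBS 1 to 0.13. The difference in median log2 CPM was 0.068 and 0.35 within the column runs, 0.089 and 0.42 within number series 11 and 12, and 0.23 over all libraries.

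The difference between genotypes in the response to bleomycin was tested as an interaction. No member passed in edgeR (0% of all genes) or in DESeq2, none reached an unadjusted p under 0.05 (3.46% of all genes), and the smallest adjusted p was 0.916. The fitted value was above 0 for 46 of the 76 genes (49.7% of all genes), with a median of 0.03 beside −0.0030 for all genes. It ranged from −0.40 ± 0.26 (SE) for Rpl24 to 0.38 ± 0.29 for Rpl10, with Rplp0 at −0.27 ± 0.24. The sign of the median was not stable, at 0.14 without Ephb4 control bleomycin 1 and −0.054 without Ephb4 control PBS 4. So the differing medians of the injury comparisons, 0.16 in Ephb4 control and 0.19 in Ephb4 CKO, were not shown to differ between genotypes.

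By subunit, the median log2 differences for bleomycin versus PBS in Ephb4 control were 0.13 for large subunit genes, 0.19 for small subunit genes and 0.40 for the stalk. For Ephb4 CKO versus control they were −0.25, −0.26 and −0.09 after PBS and −0.20, −0.22 and −0.24 after bleomycin, and for bleomycin versus PBS in Ephb4 CKO 0.17, 0.22 and 0.24. The 29 snoRNA hosts had medians of 0.21, −0.27, −0.24 and 0.20 in the 4 comparisons in that order, and the other 47 genes 0.16, −0.25, −0.21 and 0.18. The 27 genes with a pyrimidine run within 5 bases of the start had 0.17, −0.25, −0.22 and 0.17, and the 29 without one 0.15, −0.25, −0.20 and 0.21.

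Subunit genes that the symbols leave out lay within the range of the members. Rps3a1, a small subunit gene, averaged 494 ± 61.5 CPM in Ephb4 control PBS (SD, n = 4), 550 ± 78.0 in Ephb4 control bleomycin (n = 4), 399 ± 58.5 in Ephb4 CKO PBS (n = 5) and 459 ± 76.8 in Ephb4 CKO bleomycin (n = 4). Fau, whose product is made as a fusion with a ubiquitin-like protein, averaged 227 to 244 CPM over the groups, with log2 differences of −0.10 ± 0.18 for bleomycin versus PBS in Ephb4 control and 0.10 ± 0.18 for Ephb4 CKO versus control after bleomycin. Neither gene passed. Of 10 paralogs, 5 were kept and none passed, and Rps27l, a p53 target, differed by 0.36 ± 0.16 for bleomycin versus PBS in Ephb4 control.

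Genes that build ribosomes and the other TOP mRNAs were examined next, and none of the genes in these lists passed in any comparison in edgeR. Of 40 ribosome biogenesis genes 39 were kept, with medians of 0.22, −0.10, −0.24 and 0.09 in the comparisons in the order above. At an unadjusted p under 0.05, 4 were higher after bleomycin in Ephb4 control (beside 6.28% of all genes) and 5 lower in Ephb4 CKO after bleomycin (beside 9.18%). Utp4, of the small subunit processome, averaged 27.5 ± 2.41 CPM in Ephb4 control PBS and 40.6 ± 8.85 in Ephb4 control bleomycin (SD), a log2 difference of 0.56 ± 0.16 (SE), and 27.0 ± 4.05 in Ephb4 CKO bleomycin, a difference from control of −0.59 ± 0.16. Bysl, needed for small subunit maturation, differed by 0.67 ± 0.23 and −0.67 ± 0.23, and the nucleolar proteins Npm1 by 0.29 ± 0.30 and −0.54 ± 0.30 and Fbl by 0.14 ± 0.24 and −0.11 ± 0.24 in the same comparisons.

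Of 17 translation factors and other proteins with TOP mRNAs 16 were kept, with medians of 0.14, −0.25, −0.22 and 0.17. Eef1g, a subunit of the exchange factor that recycles Eef1a1, averaged 361 ± 92.0 CPM in Ephb4 control PBS, 560 ± 159 in Ephb4 control bleomycin, 301 ± 54.3 in Ephb4 CKO PBS and 338 ± 44.3 in Ephb4 CKO bleomycin (SD). Its log2 differences were 0.63 ± 0.24 for bleomycin in Ephb4 control and −0.73 ± 0.24 for Ephb4 CKO after bleomycin, and those of its partners were 0.53 ± 0.20 and −0.56 ± 0.20 (Eef1b2) and 0.41 ± 0.19 and −0.42 ± 0.19 (Eef1d). Eef1a1 itself differed by 0.08 ± 0.20 and −0.10 ± 0.20, Pabpc1 by −0.18 ± 0.17 and 0.14 ± 0.17, and Tpt1 by −0.08 ± 0.23 and 0.13 ± 0.23, so genes of this list did not share a direction.

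Of 19 regulators of TOP mRNAs and S6 kinase 18 were kept, with medians of −0.05, −0.03, 0.03 and −0.05. Larp1 (0.03 ± 0.16 and 0.09 ± 0.16) and Mtor (0.17 ± 0.15 and −0.03 ± 0.15) lay near 0 for bleomycin in Ephb4 control and for Ephb4 CKO after bleomycin. Eif4ebp1, a translation inhibitor switched off by mTORC1, averaged 45.1 ± 22.1 CPM in Ephb4 control PBS, 93.0 ± 15.0 in Ephb4 control bleomycin, 37.9 ± 10.8 in Ephb4 CKO PBS and 42.3 ± 16.2 in Ephb4 CKO bleomycin (SD), with log2 differences of 1.05 ± 0.33 and −1.14 ± 0.33 that did not pass. Among 6 genes of ribosome sensing and p53, Trp53 differed by 0.45 ± 0.20 and −0.44 ± 0.20, and Mdm2 by 0.23 ± 0.37 and 0.14 ± 0.37.

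The 77 mitochondrial ribosomal protein genes, which build a separate ribosome, were all kept and had medians of −0.12, −0.03, 0.08 and 0.03, and none passed. Reference genes used to scale expression (14 of 14 kept, none passed) had medians of −0.12, −0.04, 0.01 and 0.01. Acad9, the other NanoString reference of the study, averaged 26.5 ± 3.46, 29.6 ± 3.99, 22.1 ± 4.11 and 24.0 ± 3.52 CPM (SD) in Ephb4 control PBS, Ephb4 control bleomycin, Ephb4 CKO PBS and Ephb4 CKO bleomycin. Its log2 differences were 0.16 ± 0.17, −0.26 ± 0.16, −0.30 ± 0.17 and 0.12 ± 0.16, beside 0.50, −0.20, −0.47 and 0.24 for Rplp0. The NanoString assay was run on other cultures, so these values are not those of its samples. B2m (−1.36 ± 0.58 and 1.55 ± 0.59) and Hprt (−0.58 ± 0.25 and 0.49 ± 0.24) had the opposite sign to Rplp0 for bleomycin in Ephb4 control and for Ephb4 CKO after bleomycin.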

How the data were processed

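Total RNA depleted of ribosomal RNA was sequenced from 17 cultures, 1 mouse each. The authors trimmed adapters with Cutadapt (1.18 in the submitters' processing notes), aligned reads with strand to GRCm38 with HISAT2 2.1.0, and took whole-number counts per gene from StringTie coverage. The deposited counts were not normalised, and all 17 columns matched a labelled mouse. From these counts, genes with more than 10 CPM in 2 or more libraries were kept (10481 of 55421), and edgeR 4.0.16 (R 4.3.3, TMM library sizes, 1 mean per group, quasi-likelihood test) was fitted over all 17 libraries, with Benjamini-Hochberg adjustment over the genes kept at 0.05. The common dispersion was 0.311. CPM use TMM-scaled library sizes, log2 CPM a prior count of 2, and each standard error is the log2 fold change divided by the root of F. CPM of Ephb4 and of single markers use unscaled library totals. Depth was 66540022 to 120554468 counts, so precision was set by mice rather than counting.

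The study's batch number is not in the labels, so no batch term was fitted. Replicate numbers follow the order of deposit and pair no mice. Splits used instead were the 2 runs of sorted names among the table's columns and the number series (11 or 12) of the animals' names, which are not stated to be batches. Alternatives were DESeq2 1.42.0, limma 3.58.1 voom with and without sample weights, other normalisations, filters and covariates, pseudogene counts added, and each mouse left out. The procedure was also run on simulated counts with larger changes than those of the members, so that run does not show its power at these differences.

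Genes named with values were those with a chosen role, the 3 with the smallest p in each direction per pairwise comparison, the extremes of level per kb and of spread, members passing the test, and subunit genes outside the symbol rule; other genes named beside a count or an extreme were chosen after their values were seen. Members, lists and tests were chosen with earlier results of these data known, and the lists come from general knowledge, so their counts and medians are descriptions with no set test. Sequences come from RefSeq (GRCm38.p6) by symbol, and 63 of the 66 member starts matched a GENCODE M21 transcript start. Results of a few genes are not reported here.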

Additional observations from a re-analysis of the deposited data

Results flagged for a closer look

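A library was marked where its distance from the nearest other mouse of its group, relative to the range of that group, exceeded Dixon's 95% critical value. Of 76 groups tested (19 measures in 4 groups), 13 were marked, where 1 in 20 would give 3.8, and the measures move together, so the marks are not independent. Mouse 1 of Ephb4 control bleomycin was high in 8 of them. Its summed share of counts on the members was 4.56% (2.75 to 2.96% in the other mice of its group), Rplp0 was 1466 CPM (1013 to 1060), Rplp2 was 321 CPM (197 to 212), Rpsa was 1389 CPM (790 to 851), Rps6 was 571 CPM (392 to 400), Rps19 was 402 CPM (285 to 294), Rpl11 was 370 CPM (242 to 261) and Rpl13a was 1036 CPM (636 to 684). Its macrophage marker score, 4.36, was also the lowest of the 17 libraries, and the part of this in its high values was not tested.

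Mouse 4 of Ephb4 control PBS was high in Rplp1 at 636 CPM (378 to 416 in the others), in Rplp2 at 321 CPM (164 to 183) and in Rps27a at 315 CPM (216 to 227). Mouse 1 of Ephb4 CKO PBS was low in Rps19 at 154 CPM (232 to 248), and mouse 4 of Ephb4 CKO bleomycin was high in Rpl38 at 225 CPM (152 to 158).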

How the results depend on the processing

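No alternative called a member in 4 of the 5 comparisons. For Ephb4 CKO versus control after bleomycin, DESeq2 called 1 member lower, beside 2.42% of all genes. DESeq2 with the column runs as a covariate called 1 lower, beside 257 of all 10481 genes. Weighted limma voom called 18 lower, beside 23.2% of all genes, and there Rplp0 was at −0.33, past the threshold. No paired analysis was possible because replicate numbers follow the order of deposit and mark no shared litter, day or mouse.

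The median log2 difference of the members kept its direction in each pairwise comparison under all alternatives run. Leaving out each mouse in turn moved it between 0.076 and 0.26 (bleomycin versus PBS in Ephb4 control), −0.31 and −0.16 (Ephb4 CKO versus control after PBS), −0.28 and −0.10 (the same after bleomycin) and 0.13 and 0.27 (bleomycin versus PBS in Ephb4 CKO). Other alternatives gave 0.095 (macrophage score) to 0.29 (number series), −0.31 (upper quartile) to −0.13 (weighted voom), −0.30 (number series) to −0.12 (weighted voom) and 0.14 (without the 3 libraries against their labelled sex) to 0.25 (upper quartile) in the same order. With 1 mouse left out the interaction median moved between −0.054 and 0.14. It was −0.068 with number series as a covariate and −0.061 without the 3 libraries against their labelled sex, and had no stable sign.

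Signs of small differences turned as follows, and the causes were not tested. For bleomycin versus PBS in Ephb4 control, Rpl38 was 0.081 with number series and 0.19 with the fibroblast score as covariate, Rpl35a was 0.057 and 0.037, Rpl37a was 0.037 with the fibroblast score, and Rplp2 was −0.021 to 0.41 with a mouse left out. For Ephb4 CKO versus control after PBS, Rpl24 was −0.050 with upper quartile scaling and −0.11 to 0.11 with a mouse left out. After bleomycin, with the fibroblast score Rpl37a was −0.0045, Rpl23 −0.051 and Rpl29 −0.28. Without the 3 libraries that go against the labelled sex, Rpl23 was −0.058 and Rpl29 −0.15, and Rpl29 was −0.21 to 0.72 with a mouse left out. For bleomycin versus PBS in Ephb4 CKO, Rpl24 was 0.020 and Rpl41 0.019 without those 3 libraries, Rpl41 was 0.030 with upper quartile scaling and 0.0014 with a filter of any count above 0, and with a mouse left out they were −0.24 to 0.0061 and −0.091 to 0.0015.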
